A study of Mus musculus with 6 samples.

Results

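The serpins are a family of protease inhibitors and related proteins, and their genes carry symbols that start with Serpin followed by a letter for the clade. In mouse embryonic fibroblasts (MEFs), which grow out of minced embryos as connective tissue cells, 40 serpin genes were measured, of 18193 genes in all. They were taken by symbol alone: 56 of 45037 probe sets name a single serpin gene, and the probe set with the highest mean over all arrays stood for each gene. Clade A had 14 of these genes, clade B 18, clades F and I 2 each, and clades C, D, G and H 1 each.

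Most serpins are suicide inhibitors. An exposed loop of the serpin acts as bait for a protease, and after the cut the loop snaps into the body of the protein, which traps and distorts the protease in a covalent complex. Clade A members are mostly secreted by the liver and circulate in plasma, whereas clade B members lack a classical signal peptide, stay largely inside the cell and guard it against its own or incoming granule proteases. A few family members do not inhibit proteases at all: SERPINH1 is a collagen chaperone of the endoplasmic reticulum, SERPINF1 is a secreted factor known for blocking blood vessel growth, and SERPINA6 and SERPINA7 carry hormones in plasma. In mice, several clade B ancestors have been copied into groups of neighbouring genes, such as the Serpinb1, Serpinb6 and Serpinb9 groups.

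The arrays came from Atxn3-KO MEFs, which lack ataxin-3, the deubiquitinating enzyme affected in spinocerebellar ataxia type 3, and from Atxn3-WT MEFs, with 3 Affymetrix mouse genome arrays per genotype and no treatment given in the labels. The values are deposited log2 levels after robust multi-array average (RMA) normalization, and each difference is Atxn3-KO minus Atxn3-WT from limma, with its standard error (SE) and p-values adjusted by Benjamini-Hochberg over all 45037 probe sets. The replicates are called biological, but separate embryos or cultures are not stated, so that p-values cover the spread among these arrays alone, and that spread may be technical. In cultured bulk samples, fewer cells of a type and less RNA per cell cannot be told apart.

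The targeted gene had log2 levels of 3.60, 3.43 and 3.73 in Atxn3-KO MEFs, against 6.53, 6.81 and 6.66 in Atxn3-WT MEFs, and its other, dimmer probe set differed by -0.35 on the log2 scale (adjusted p = 0.117). The sources used here do not place either probe set relative to the deletion. Of 14 fibroblast markers, 12 were at or above the median level of all probe sets, and Lum and Fap were below it. Of the 14 markers 3 were higher and 7 lower in Atxn3-KO MEFs, beside 24.1% and 20.7% of all expressed genes. Thy1 averaged 7.18 in Atxn3-KO MEFs and 11.39 in Atxn3-WT MEFs, and Dcn averaged 10.88 in Atxn3-KO MEFs and 8.98 in Atxn3-WT MEFs. Of 10 epithelial markers 2 were higher and 0 lower, beside 17.1% and 14.7% of all genes. These were Epcam (8.92 in Atxn3-KO MEFs, 8.54 in Atxn3-WT MEFs) and Krt18 (5.63 in Atxn3-KO MEFs, 4.36 in Atxn3-WT MEFs). The log2 of the summed level of all 10 was 10.53 to 10.63 in Atxn3-KO MEFs and 10.24 to 10.42 in Atxn3-WT MEFs. The 2 brightest markers, Epcam and Krt19, weigh most in this sum, and Krt19 did not pass (adjusted p = 0.0974). For 10 macrophage markers that sum was 9.26 to 9.28 in Atxn3-KO MEFs and 9.18 to 9.28 in Atxn3-WT MEFs, with none past the threshold, and 0 of 9 mast cell and cytotoxic lymphocyte markers passed. The part of these marker differences in the serpin results was not tested.

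The serpins that differed between the genotypes were mainly clade B genes, and those with the largest differences were higher in Atxn3-KO MEFs. At an adjusted p under 0.05, 12 of 40 serpin genes (30%) passed with higher levels in Atxn3-KO MEFs and 2 (5%) with lower levels, beside a background over all genes of 17.1% higher and 14.7% lower. At the stricter thresholds of the study, an adjusted p no greater than 0.001 together with a 2-fold change, 6 serpin genes (15%) were higher and 0 were lower, beside 1.28% and 0.649% of all genes. The arrays of the genotypes did not overlap for 16 serpin genes (40%), beside 49.2% of all genes. The median log2 fold change was 0.04 over the 40 serpins and 0.00 over all genes, so the middle of the family lay close to that of all genes and the large differences belonged to a few members.

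By clade, 10 of 18 clade B genes were higher and 0 were lower, with a median log2 fold change of 0.30. In clade A, 1 of 14 genes was higher and 2 were lower, with a median of 0.02. Over all genes, 17.1% were higher and 14.7% lower. Of the 6 genes past the 2-fold threshold, 5 were clade B genes and the other was Serpinf1. None of the 6 genes of clades C, D, G, H and I passed either threshold. No test between clades was made, and the clades also differ in level and in chromosome. Of the 14 clade A genes, 13 were below the median level of all probe sets, where 5.21% of all genes were higher. Of the clade B genes, 11 lie on chromosome 13, where most expressed genes were higher, as described below.

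**Figure D1:**
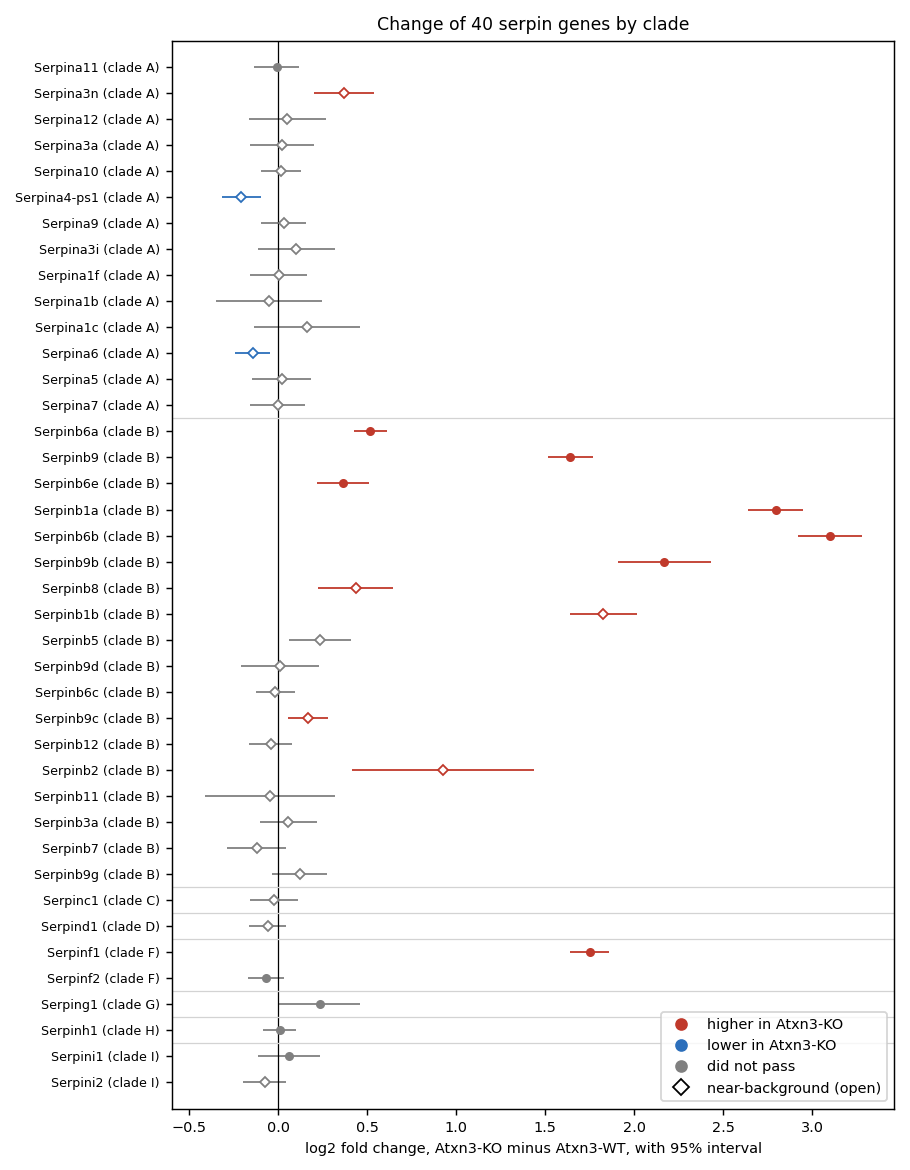
Log2 fold change, Atxn3-KO minus Atxn3-WT, of the 40 serpin genes with 95% intervals, in rows grouped by clade and ordered by mean level; filled circles are genes at or above the median level of all probe sets and open diamonds are genes below it. The points far to the right are clade B genes and Serpinf1, while clade A points stay between -0.21 and 0.37.

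Many serpins gave little signal in these cells. A gene was called expressed where its mean over all 6 arrays reached the median of all probe sets (a log2 level of 5.98) and near-background otherwise. By this rule 12 serpins were expressed and 28 were near-background, beside 11462 and 6731 of all 18193 genes. Of the expressed ones, 6 belonged to clade B (Serpinb6a, Serpinb9, Serpinb6e, Serpinb1a, Serpinb6b and Serpinb9b), 2 to clade F (Serpinf1 and Serpinf2) and 1 each to clades A (Serpina11), G (Serping1), H (Serpinh1) and I (Serpini1). Clade A was thus near-background in 13 of its 14 measured genes. Markers of hepatocytes, the main source of plasma clade A serpins, were likewise near-background in 7 of 9 cases.

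Among expressed serpins, 7 of 12 (58.3%) were higher and 0 were lower, beside 24.1% higher and 20.7% lower among all expressed genes. Past 2-fold, 5 of the 12 (41.7%) were higher, beside 1.77% of expressed genes. Among near-background serpins, 5 of 28 (17.9%) were higher and 2 (7.14%) were lower, beside 5.21% and 4.52% of near-background genes, and 1 (3.57%) was higher past 2-fold, beside 0.446%. The median log2 fold change was 0.44 for expressed and 0.02 for near-background serpins, and all 6 expressed clade B genes were higher, with a median of 1.90. These 6 lie on chromosome 13, where 60.4% of the 404 expressed genes other than serpins were also higher, and 2.97% were higher past 2-fold. Of the other expressed serpins, Serpinf1 alone was higher. The part of the chromosome in these counts was not tested.

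**Figure D2:**
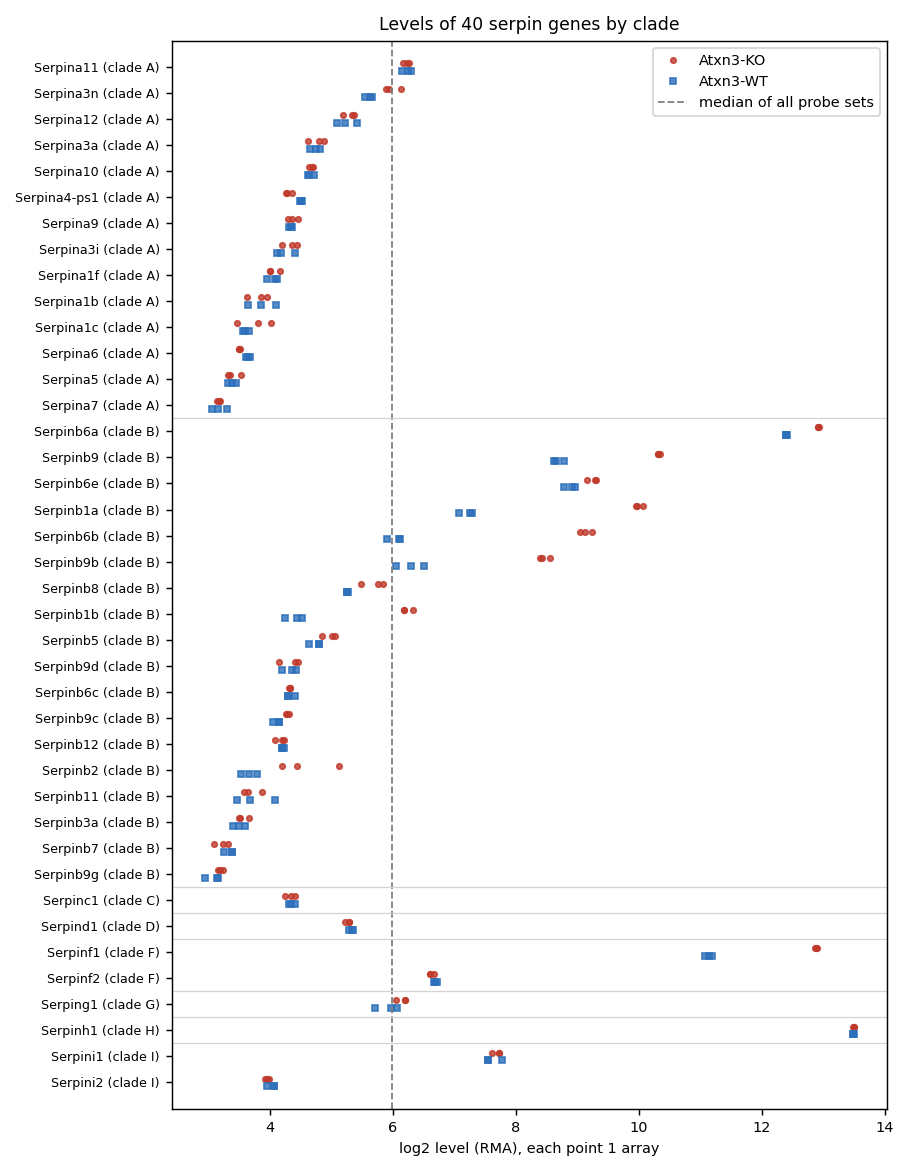
Log2 level of the 40 serpin genes on each array (circles, Atxn3-KO; squares, Atxn3-WT), grouped by clade, with the median level of all probe sets as a dashed line at 5.98. Clade A lies mostly left of the line, and the clade B genes with the widest gaps between circles and squares have all their circles right of it.

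The promoters of the genes with the largest differences are shown first because 4 of them are neighbours on chromosome 13 that differed in the same direction. The windows are those of the genes past 2-fold other than Serpinb1a, which had no match in the table used. RefSeq promoter windows of GRCm38.p6, with 250 bases before and 50 after the start site, were matched for 34 of the 40 serpin genes. The windows below read 5′ to 3′ on the gene's strand and lie at chr13:32965011-32965310 (plus strand), chr13:33004291-33004590 (plus), chr13:33027164-33027463 (plus), chr13:33083853-33084152 (plus) and chr11:75422574-75422873 (minus). Capitals mark matches, on either strand, to 1 of 5 searched motifs. These were the TATA box (TATAAA), the box read by the factor NF-Y (CCAAT), the AP-1 motif (TGANTCA), the STAT motif (TTCNNNGAA) and the core of the interferon-stimulated response element (GAAANNGAA).
Serpinb6b: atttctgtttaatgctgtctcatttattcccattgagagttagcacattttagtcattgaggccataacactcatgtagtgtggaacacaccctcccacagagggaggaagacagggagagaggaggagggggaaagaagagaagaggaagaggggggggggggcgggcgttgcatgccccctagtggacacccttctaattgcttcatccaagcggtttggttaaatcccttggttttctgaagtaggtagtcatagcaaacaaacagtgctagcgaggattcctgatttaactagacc
Serpinb9: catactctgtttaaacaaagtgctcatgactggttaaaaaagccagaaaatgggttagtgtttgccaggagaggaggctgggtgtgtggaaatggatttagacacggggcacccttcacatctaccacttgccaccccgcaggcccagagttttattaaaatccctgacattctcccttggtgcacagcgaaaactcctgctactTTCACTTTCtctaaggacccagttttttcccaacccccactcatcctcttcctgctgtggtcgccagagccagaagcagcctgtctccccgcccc
Serpinb9b: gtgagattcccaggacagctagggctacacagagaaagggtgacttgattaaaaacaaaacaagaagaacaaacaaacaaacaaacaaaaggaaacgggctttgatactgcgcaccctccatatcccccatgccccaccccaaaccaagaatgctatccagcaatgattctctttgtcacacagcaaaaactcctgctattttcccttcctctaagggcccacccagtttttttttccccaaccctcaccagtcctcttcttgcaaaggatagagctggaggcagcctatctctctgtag
Serpinb1b: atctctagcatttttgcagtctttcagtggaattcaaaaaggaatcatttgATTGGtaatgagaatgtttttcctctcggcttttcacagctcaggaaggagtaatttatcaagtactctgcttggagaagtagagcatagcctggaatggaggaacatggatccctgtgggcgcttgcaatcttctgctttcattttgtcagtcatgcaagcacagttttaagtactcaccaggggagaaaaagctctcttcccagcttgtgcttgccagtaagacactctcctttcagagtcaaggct
Serpinf1: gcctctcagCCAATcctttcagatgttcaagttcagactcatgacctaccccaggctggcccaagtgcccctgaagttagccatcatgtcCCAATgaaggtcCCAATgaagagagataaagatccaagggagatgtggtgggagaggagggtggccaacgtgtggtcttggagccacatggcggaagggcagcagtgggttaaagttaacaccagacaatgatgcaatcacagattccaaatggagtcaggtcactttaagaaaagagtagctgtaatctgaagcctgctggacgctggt

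No motif was held by more than 1 of the 4 clade B windows shown. The Serpinb9 window held 1 match to the interferon-stimulated core, which begins at -45 from the start site, and 8.56% of the 32851 windows in the table hold this motif. Serpinb1b had 1 CCAAT match at -199 (37.4% of windows), and Serpinb6b and Serpinb9b had none of the 5. Serpinf1 carried CCAAT at -241, -160 and -148. The TATA box is in 13.6% of windows, the AP-1 motif in 7.81% and the STAT motif in 8.3%, and none of them was in the windows shown. No matches to different motifs overlapped. Aligned over their full length with gaps allowed, Serpinb9 and Serpinb9b shared 187 identical bases of 300 (62.3%), and the other pairs 43.3% to 52.7%.

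Within clade B, Serpinb1a and its paralog Serpinb1b encode inhibitors of the Serpinb1 group, and the group's founding member is known as an inhibitor of neutrophil elastase and cathepsin G. Serpinb1a had log2 levels of 9.96, 10.06 and 9.97 in Atxn3-KO MEFs, against 7.25, 7.08 and 7.29 in Atxn3-WT MEFs. The lowest Atxn3-KO array stood far above the highest Atxn3-WT array, for a log2 fold change of 2.79 or 6.94-fold (SE 0.066, adjusted p = 7.39e-07). A dimmer Serpinb1a probe set, of the kind that can share signal with relatives, had 5.47, 5.62 and 5.58 in Atxn3-KO MEFs and 4.60, 4.64 and 4.17 in Atxn3-WT MEFs, a log2 fold change of 1.09. Its direction was the same but its size was smaller.

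Serpinb1b was higher too. It had log2 levels of 6.19, 6.18 and 6.32 in Atxn3-KO MEFs, against 4.52, 4.24 and 4.45 in Atxn3-WT MEFs, a log2 fold change of 1.83 (SE 0.081, adjusted p = 9.20e-06). The Atxn3-KO arrays lay just above the median of all probe sets and the Atxn3-WT arrays close to its 25th percentile of 4.38, so the 3.55-fold difference is not exact. Serpinb1b was the 1 near-background serpin past the 2-fold threshold.

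The Serpinb6 group holds the largest and some of the smallest differences of the family. Serpinb6b, a mouse paralog of the intracellular inhibitor Serpinb6a, had log2 levels of 9.12, 9.05 and 9.24 in Atxn3-KO MEFs, against 5.90, 6.10 and 6.12 in Atxn3-WT MEFs. The groups stood far apart, for a log2 fold change of 3.10 or 8.55-fold (SE 0.077, adjusted p = 8.13e-07), the highest of the 40 serpins. Serpinb6a itself, an inhibitor known to act on cathepsin G, was bright in both genotypes, with 12.90, 12.91 and 12.92 in Atxn3-KO MEFs, against 12.39, 12.39 and 12.40 in Atxn3-WT MEFs. Its log2 fold change of 0.52 (SE 0.039, adjusted p = 1.20e-04) was small beside that of Serpinb6b, but the arrays within a genotype differed by far less.

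Serpinb6e, another paralog, had 9.16, 9.28 and 9.31 in Atxn3-KO MEFs, against 8.79, 8.96 and 8.90 in Atxn3-WT MEFs, a log2 fold change of 0.37 (SE 0.063, adjusted p = 0.00478). Its only probe set is of a type that can cross-hybridize with related genes, and signal from the bright Serpinb6a was not tested. Serpinb6c was near-background in both genotypes, with a log2 fold change of -0.01 (adjusted p = 0.861). So the 4 measured members of the group had log2 fold changes between -0.01 and 3.10.

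The Serpinb9 group showed the same unevenness. Serpinb9, the inhibitor of granzyme B that protects cytotoxic lymphocytes from their own granules, had log2 levels of 10.31, 10.30 and 10.34 in Atxn3-KO MEFs, against 8.77, 8.61 and 8.65 in Atxn3-WT MEFs, a log2 fold change of 1.64 or 3.11-fold (SE 0.054, adjusted p = 2.62e-06). A dimmer Serpinb9 probe set had 7.72, 7.86 and 7.76 in Atxn3-KO MEFs and 6.48, 6.55 and 6.28 in Atxn3-WT MEFs, a log2 fold change of 1.34 (adjusted p = 3.49e-05). Both probe sets separated the genotypes without overlap.

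Serpinb9b, its neighbour and paralog, had 8.39, 8.43 and 8.55 in Atxn3-KO MEFs, against 6.51, 6.05 and 6.30 in Atxn3-WT MEFs. The Atxn3-WT arrays were the more scattered, but all lay below every Atxn3-KO array, and the log2 fold change was 2.17 or 4.50-fold (SE 0.11, adjusted p = 1.93e-05). Serpinb9c, a dim member, had 4.31, 4.26 and 4.28 in Atxn3-KO MEFs, against 4.04, 4.15 and 4.15 in Atxn3-WT MEFs, a log2 fold change of 0.17 (adjusted p = 0.0409). That call was not stable: it was lost without any 1 of the 6 arrays (adjusted p = 0.0650 to 0.112), and a dimmer probe set of the gene gave -0.18 (adjusted p = 0.140). Serpinb9d and Serpinb9g, also near-background, had log2 fold changes of 0.01 and 0.12 and did not pass.

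The remaining clade B genes lie on chromosome 1, and 2 of the 7 measured there passed. Serpinb2, or plasminogen activator inhibitor type 2, had 4.44, 4.19 and 5.12 in Atxn3-KO MEFs, against 3.66, 3.79 and 3.53 in Atxn3-WT MEFs, a log2 fold change of 0.93 (SE 0.22, adjusted p = 0.0182). Its spread came mostly from the third Atxn3-KO array, the highest of the 6, and its size is not exact, since the 25th percentile of all probe sets (4.38) was above each Atxn3-WT level. The adjusted p was 0.0577 without the Atxn3-WT array of replicate 1 and 0.0599 without that of replicate 3, and leaving out single arrays gave log2 fold changes of 0.66 to 1.12.

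Serpinb8, an intracellular inhibitor whose human protein is known to block furin in the test tube, had 5.85, 5.76 and 5.48 in Atxn3-KO MEFs, against 5.28, 5.25 and 5.26 in Atxn3-WT MEFs. The groups did not overlap, and the log2 fold change was 0.43 (SE 0.091, adjusted p = 0.0112). A dimmer Serpinb8 probe set also separated the genotypes, with a log2 fold change of 0.67 (adjusted p = 3.30e-04). Serpinb5, or maspin, a member without inhibitory activity that is typical of epithelial cells, had 5.06, 5.02 and 4.85 in Atxn3-KO MEFs, against 4.80, 4.79 and 4.63 in Atxn3-WT MEFs, and its log2 fold change of 0.24 missed the threshold (adjusted p = 0.0525). Its 3 dimmer probe sets had log2 fold changes of -0.14 to 0.09. The other 4 genes there, Serpinb3a, Serpinb7, Serpinb11 and Serpinb12, were near-background and overlapped between the genotypes.

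**Figure D3:**
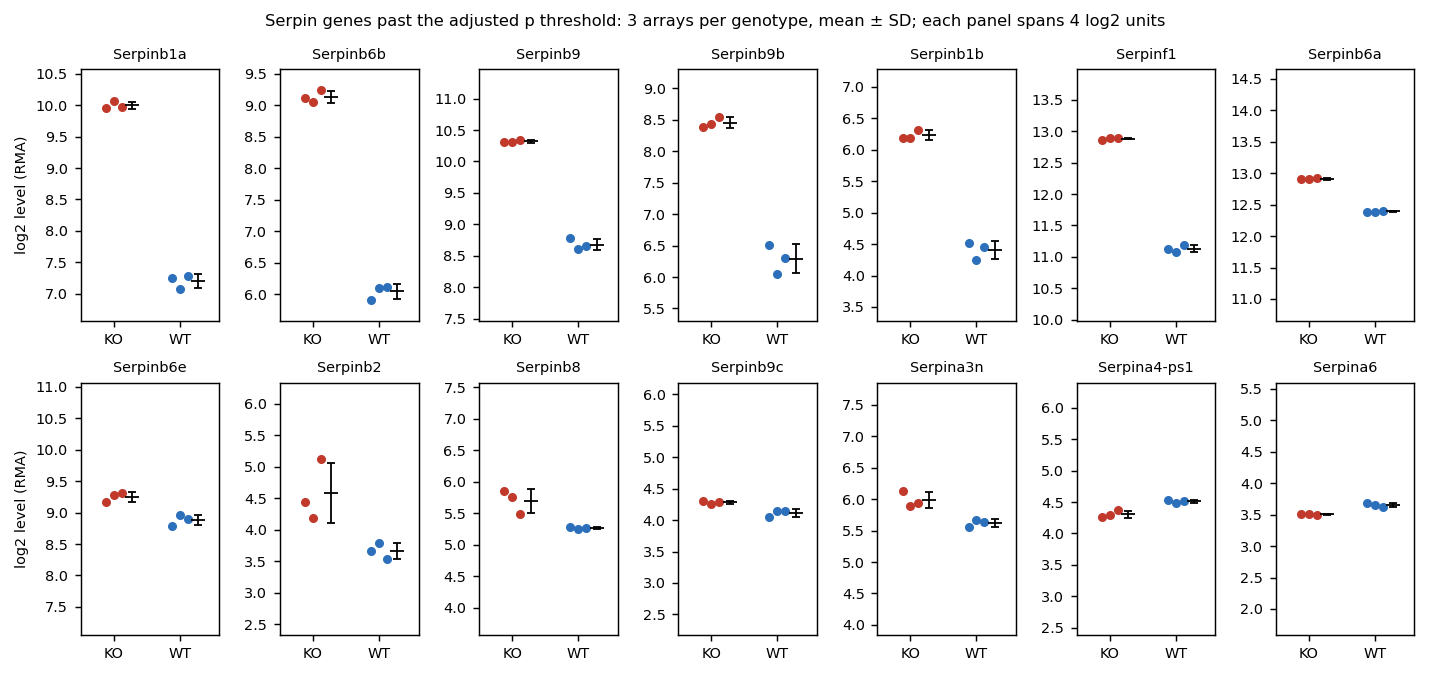
Log2 level on each array for the 14 serpin genes past an adjusted p of 0.05, with Atxn3-KO arrays left and Atxn3-WT arrays right in each panel, the mean and its SD (n = 3) beside them, and every panel spanning 4 log2 units. The gap between genotypes is widest for Serpinb6b and Serpinb1a, and for Serpinb9c, Serpina4-ps1 and Serpina6 it is at most 0.21.

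In clade F, the 2 measured members sit on the same chromosome, and 1 of them passed. Serpinf1, the secreted pigment epithelium-derived factor, had log2 levels of 12.87, 12.89 and 12.88 in Atxn3-KO MEFs, against 11.13, 11.07 and 11.19 in Atxn3-WT MEFs, a log2 fold change of 1.75 or 3.36-fold (SE 0.047, adjusted p = 1.12e-06). A second Serpinf1 probe set had 11.84, 11.94 and 11.87 in Atxn3-KO MEFs and 10.31, 10.21 and 10.26 in Atxn3-WT MEFs, a log2 fold change of 1.62. Serpinf1 was the only serpin outside clade B past the 2-fold threshold, and both probe sets gave differences of like size. Serpinf2, the plasmin inhibitor alpha-antiplasmin, had 6.66, 6.61 and 6.60 in Atxn3-KO MEFs and 6.72, 6.66 and 6.69 in Atxn3-WT MEFs, a log2 fold change of -0.07 (95% interval -0.17 to 0.03, adjusted p = 0.320). A test of the difference between the 2 genes was not made.

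The other expressed serpins outside clade B did not pass the threshold. Serpinh1, which helps collagen to fold, was bright in both genotypes, with 13.48, 13.50 and 13.49 in Atxn3-KO MEFs and 13.49, 13.47 and 13.48 in Atxn3-WT MEFs. Its log2 fold change was 0.01 with a 95% interval of -0.08 to 0.10, which leaves room only for small differences on this scale, and a second probe set gave -0.02. Serpini1, or neuroserpin, an inhibitor of tissue plasminogen activator, had a log2 fold change of 0.06 (95% interval -0.11 to 0.23). The dimmer Serpini1 probe sets gave -0.03 and -0.04 and did not pass. Serpina11 had a log2 fold change of -0.01 (-0.14 to 0.12). Serping1, the inhibitor of the first complement proteases, had 6.20, 6.06 and 6.19 in Atxn3-KO MEFs, against 6.07, 5.70 and 5.98 in Atxn3-WT MEFs, so that the groups overlapped by a single pair of arrays. Its log2 fold change of 0.23 (95% interval 0.01 to 0.46) did not pass (adjusted p = 0.126).

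Clade A held 3 calls, all small and all near-background. Serpina3n, an acute phase inhibitor of the antichymotrypsin type, had 6.14, 5.89 and 5.93 in Atxn3-KO MEFs, against 5.55, 5.67 and 5.64 in Atxn3-WT MEFs, a log2 fold change of 0.37 (SE 0.073, adjusted p = 0.00859). This was the 1 clade A gene that was higher. Serpina4-ps1, a pseudogene, had 4.26, 4.29 and 4.37 in Atxn3-KO MEFs, against 4.53, 4.49 and 4.51 in Atxn3-WT MEFs, a log2 fold change of -0.21 (adjusted p = 0.0154). Its further probe sets had -0.18 and 0.02, neither past the threshold, and the call was lost without the Atxn3-KO array of replicate 1 (adjusted p = 0.0525) or 2 (0.0567) or the Atxn3-WT array of replicate 1 (0.0516) or 3 (0.0506).

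Serpina6, the plasma carrier of corticosteroids, had 3.50, 3.52 and 3.50 in Atxn3-KO MEFs, against 3.68, 3.65 and 3.62 in Atxn3-WT MEFs, a log2 fold change of -0.14 (adjusted p = 0.0410). These levels are below the 25th percentile of all probe sets, and leaving out any 1 array ended the call (adjusted p = 0.0705 to 0.113). The 10 near-background clade A genes that did not pass included the antitrypsin copies Serpina1b, Serpina1c and Serpina1f, the protein C inhibitor Serpina5, the thyroxine carrier Serpina7 and the adipose serpin vaspin, Serpina12, beside Serpina3a, Serpina3i, Serpina9 and Serpina10. Together with the plasma serpins Serpinc1 (antithrombin) and Serpind1 (heparin cofactor II), Serpini2 and 8 clade B genes, 21 near-background serpins did not pass. Their levels lay between 2.94 and 5.42 on all arrays and their log2 fold changes between -0.12 and 0.24. At this signal a probe set can miss a change, so these values do not show that the genes were silent or unchanged. The 3 probe sets that name several serpin genes at once, left out of the gene counts, had log2 fold changes of -0.13 to 0.03 and did not pass.

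The clade B genes form tight runs of neighbours, and the large differences lay side by side. On chromosome 13, 11 serpins were measured between Serpinb1a and Serpinb6a, with no other gene measured among them, and 8 were higher. The first 5 in chromosome order, Serpinb1a, Serpinb6b, Serpinb9, Serpinb9b and Serpinb1b, had log2 fold changes of 1.64 to 3.10, and the following 6, Serpinb9c to Serpinb6a, had -0.01 to 0.52. The 5 measured genes on each side of the run were also mostly higher, 9 of 10, with log2 fold changes of 0.02 to 1.18, of which only Foxc1, a forkhead transcription factor, passed 2-fold.

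**Figure D4:**
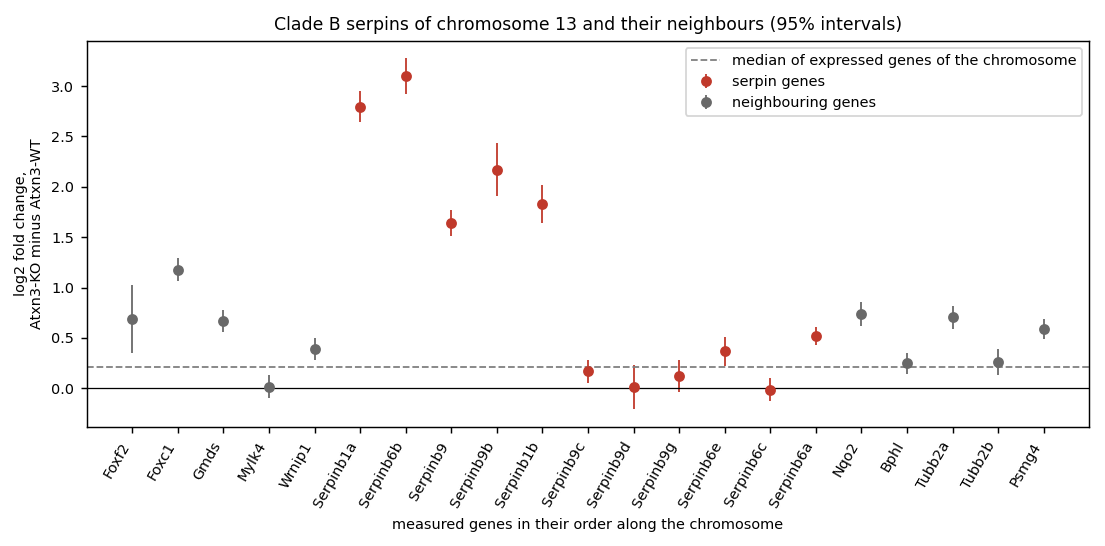
Log2 fold change, Atxn3-KO minus Atxn3-WT, with 95% intervals for the chromosome 13 serpins and the 5 measured genes on each side, in chromosome order and not to distance; the dashed line is the median of the chromosome's expressed genes (0.21). The first 5 serpins stand above all their neighbours, and the last 6 lie between -0.01 and 0.52.

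The neighbours are not the only genes of chromosome 13 that were higher. Of its 404 expressed genes other than serpins, 60.4% were higher in Atxn3-KO MEFs, with a median log2 fold change of 0.21, beside 24.1% of expressed genes over the genome, and 2.97% were higher past 2-fold. Expressed genes of chromosome 6 had a median of 0.25 and those of chromosome 4 one of 0.20, whereas chromosome 14 had -0.23 and chromosome 1 had -0.17. On chromosome 13 this shift has the direction of the serpin calls, whereas Serpinb2 and Serpinb8 were higher on chromosome 1 and Serpinf1 was higher on chromosome 11, whose median was -0.08. The source of the shifts was not tested.

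Against the median of their own chromosome, the differences of the leading serpins stayed large: 2.88 for Serpinb6b, 2.58 for Serpinb1a, 1.95 for Serpinb9b, 1.61 for Serpinb1b and 1.42 for Serpinb9, and 1.83 for Serpinf1 on chromosome 11. When each array's chromosome medians were subtracted before the fit, an alternative chosen after seeing the data, 11 serpins were higher, 3 were lower and the same 6 passed 2-fold. The shares of all genes given above belong to the main fit, so they are no background for these counts. Serpinb6e (log2 fold change 0.14, adjusted p = 0.130), Serpinb9c (-0.05, adjusted p = 0.478) and Serpina6 (-0.11, adjusted p = 0.0834) then no longer passed. Serpinb5 (0.41, adjusted p = 0.00794) was then higher, and Serpinb6c (-0.24, adjusted p = 0.0103) and Serpind1 (-0.22, adjusted p = 0.00934) were then lower. These 3 are near-background, and the shift subtracted from them is that of expressed genes. Serpinb6a kept a log2 fold change of 0.30 (adjusted p = 0.00185).

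**Figure D5:**
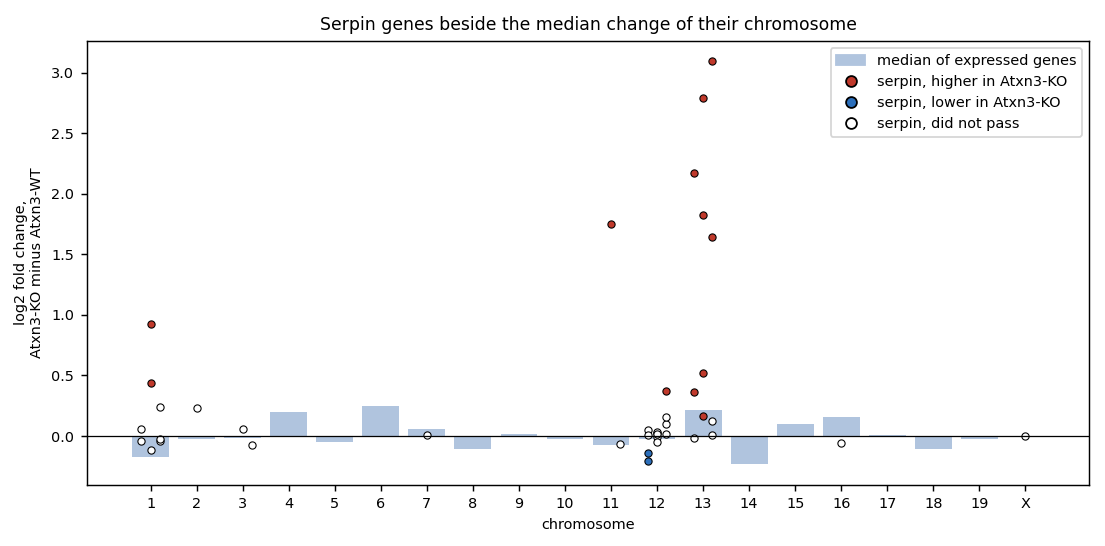
Log2 fold change, Atxn3-KO minus Atxn3-WT, of the 40 serpin genes (points) by chromosome, beside the median over expressed genes of each chromosome (bars). The chromosome 13 bar stands at 0.21, and 5 serpin points of that chromosome lie at 1.64 or above.

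Runs of serpins also lie on chromosomes 1 and 12. On chromosome 1, where Serpinb2 and Serpinb8 were higher, 0 of the 10 flanking genes were higher and 4 were lower, with log2 fold changes of -0.45 to 0.11, beside 7.26% higher and 50.8% lower among the chromosome's expressed genes. The clade A run on chromosome 12 had 13 measured serpins, of which 1 was higher and 2 were lower. Of its 10 flanking genes, 3 were higher, among them the interferon-induced Ifi27l2a with 1.41, and 0 were lower. Among the chromosome's expressed genes, 15.1% were higher and 22.3% lower, with a median of -0.03. The clade A run lies on the chromosome of the deleted gene, with 25 protein-coding genes between Atxn3 and Serpina10.

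The proteases that serpins act on, and other proteins around them, were counted in lists beside the family. Of 15 measured genes of plasminogen activation and clotting, 2 (13.3%) were higher and 0 lower, beside 17.1% and 14.7% of all genes, with a median log2 fold change of -0.01. Tissue factor, F3, which starts clotting, had 10.01, 10.19 and 10.31 in Atxn3-KO MEFs, against 8.86, 8.92 and 8.86 in Atxn3-WT MEFs, a log2 fold change of 1.29 (adjusted p = 4.24e-05), and the urokinase receptor Plaur had 0.45. The 13 others did not pass. With chromosome medians subtracted, F3 and Plaur were still higher, and F2r was then lower (-0.18, adjusted p = 0.0162).

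Among 17 leukocyte granule and lysosomal proteases, which include targets of clade B serpins, 3 (17.6%) were higher and 1 (5.88%) was lower, with a median of 0.01, so that the share that was higher lay close to the 17.1% of all genes. All 4 were cathepsins of the lysosome. Ctsh was higher by 1.40 on the log2 scale and Ctsl by 0.31, while Ctsk fell by 0.35 and Ctsd was the other gene that was higher. With chromosome medians subtracted the list had 10 calls, 6 of them granule proteases with log2 fold changes of -0.33 to 0.40 (Ctsg, Gzmb, Mcpt8 and Cma1 higher, Gzma and Gzmk lower), all 6 near-background, and Ctsl no longer passed (adjusted p = 0.165). Of the 7 proteases and subunits of the C1 complex and lectin pathway, which include targets of SERPING1, 3 (42.9%) were higher and 0 lower. Over all genes, 17.1% were higher and 14.7% lower. Only 3 of the 7 were expressed, the same 3 that were called, and 24.1% of all expressed genes were higher. C1s1 had a log2 fold change of 1.32, C1ra of 1.06 and Masp1 of 0.70, with a list median of 0.02. With chromosome medians subtracted these 3 were still higher, by 1.07, 0.81 and 0.53, and the near-background C1qb was lower (-0.28, adjusted p = 0.00822). Without probe sets that can cross-hybridize, 1 gene of this list passed.

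Of 21 procollagen genes and their chaperones and modifying enzymes, which work beside SERPINH1, 8 (38.1%) were higher and 5 (23.8%) lower, with a median of 0.02. All 21 were expressed, and among all expressed genes 24.1% were higher and 20.7% lower. The largest were the prolyl hydroxylases P3h2 (1.09) and P3h3 (0.78) and the lysyl hydroxylase Plod1 (0.76). With chromosome medians subtracted these 3 had 0.93, 0.52 and 0.56 and still passed an adjusted p of 0.05. Fkbp14 (adjusted p = 0.448) and Col3a1 (adjusted p = 0.104) then no longer passed. Of 32 protease inhibitors outside the family, 7 (21.9%) were higher and 5 (15.6%) lower, shares near those of all genes, with a median of -0.01. Tfpi2, an inhibitor of the Kunitz type, had 7.36, 7.16 and 7.09 in Atxn3-KO MEFs, against 3.57, 3.39 and 3.44 in Atxn3-WT MEFs. Its log2 fold change of 3.74 is not exact, since the Atxn3-WT levels lay below the 25th percentile of all probe sets, and Cst6 (-0.81) and Itih5 (0.70) followed in size. With chromosome medians subtracted, Wfdc1 no longer passed (adjusted p = 0.238), while Tfpi2, Cst6 and Itih5 still did. The near-background Itih1 was then higher (0.24). The near-background Spink4, Stfa3, Timp4, Pzp and Ambp were then lower, with log2 fold changes of -0.48 to -0.20. Of 6 receptors that clear serpin-protease complexes or their helpers, 2 (33.3%) were higher and 1 (16.7%) lower. Of the 6, 5 were expressed, so the shares of all expressed genes (24.1% and 20.7%) stand beside these. Lrpap1 and Lrp8 were higher by 0.35 each on the log2 scale and Sort1 fell by 0.21, with a list median of -0.05. With chromosome medians subtracted, Lrp8 no longer passed (0.15, adjusted p = 0.106). No list had a median as far from 0 as that of clade B, which is a description and was not tested.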

How the data were processed

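RNA from 3 Atxn3-KO and 3 Atxn3-WT MEF samples was hybridized to Affymetrix arrays. The authors deposited log2 values of 45101 probe sets, normalized by RMA (background correction, quantile normalization and a summary per probe set). RMA and limma are named in the submitters' processing notes without versions. RMA makes array distributions alike, so it would remove a shift shared by all genes. Here 64 controls were left out and limma 3.58.1 in R 4.3.3 fitted Atxn3-KO minus Atxn3-WT (lmFit, eBayes, equal array weights, since the methods name a weighted model without its weights), with no filter on low values. Gene symbols came from the platform annotation: 34945 probe sets name 1 gene, 932 several and 9160 none, and 34741 matched RefSeq (GRCm38.p6).

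Members and lists were chosen with earlier results of these data known. Named genes were Atxn3, every serpin past an adjusted p of 0.05, every expressed serpin, further probe sets of these, and in each list at most 3 members, those past the threshold with the largest changes. Values of Serpinb5, Serpinb6c, Serpinb9d, Serpinb9g and Serpind1, of markers and of flanking genes were chosen after they were seen. So were those of further list genes (Ctsd, Ctsg, Gzma, Gzmb, Gzmk, Mcpt8, Cma1, C1qb, Fkbp14, Col3a1, F2r, Wfdc1, Itih1, Spink4, Stfa3, Timp4, Pzp and Ambp). Other serpins were named by clade. The fit was tested on simulated data. Array medians were 5.97 to 5.99 for Atxn3-KO and 5.98 to 6.00 for Atxn3-WT, and arrays of a genotype correlated at 0.998 to 0.999. The number of arrays limits the precision. Alternatives were array weights, a replicate block, normalization, dim probe sets left out, variance models, the probe set used per gene, and single arrays left out. Protein sequences were not analysed here.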

Additional observations from a re-analysis of the deposited data

How the results depend on the processing

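The number of serpins higher past 2-fold was 6 under every alternative but the one without dim probe sets, which left 5. Among expressed serpins 7 were higher without any 1 array, and 338 of 371 recomputed fold changes kept their direction and side of the threshold. Of 342 recomputed counts, 212 were equal, 79 changed by at most 1.5 times and 51 by more. The small calls near background changed. With dim probe sets left out, 7 serpins were higher (6 in clade B, 0 in clade A) and 0 lower, since near-background genes are then not tested. The 2 lower calls, both near-background clade A genes, became 1 with the replicate block, with median centring, with the mean or the lowest of a gene's probe sets, and 0 with trend and robust variance. With single arrays left out, 10 to 12 serpins were higher and 0 to 1 lower, near-background serpins gave 3 to 5 higher and 0 to 1 lower, clade A gave 1 to 2 higher and 0 to 1 lower, and clade B gave 8 to 10 higher. With classes divided at the 40th percentile, 2 near-background serpins were higher. With chromosome medians subtracted, clade A and clade B each had 1 lower gene.

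Serpinb9c reversed to -0.0069 with the mean of its probe sets, to -0.18 with the lowest and to -0.054 with chromosome medians subtracted. The lowest-mean Atxn3 probe set gave -0.35 (adjusted p = 0.117). The clotting list gave 2 to 4 calls with single arrays left out. The C1 list gave 1 without probe sets that can cross-hybridize, the receptor list 5 there and 5 when adjusted over 1 probe set per gene, and the granule and lysosomal list 10 with chromosome medians subtracted. The causes were not tested. Replicate numbers did not pair the samples: same-numbered arrays correlated at -0.04 to 0.02 in their deviations, and 1 of 3 Atxn3-KO arrays correlated best with its own number. The replicate block lost the calls of Serpina6 (adjusted p = 0.0954) and Serpinb9c (0.0930) and gained those of Serpinb5 (0.0231) and Serping1 (0.0496), for 13 serpins higher and 1 lower. Array signal near background limits what can be said of 28 of the 40 genes.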
